A study of Homo sapiens with 2 samples.

Results

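Contractile actin genes and targets of the coactivator YAP were examined in HSC-1, a human cell line of cutaneous squamous cell carcinoma (cSCC), after transfection with a control siRNA (siNC) or with siRNA against the long non-coding RNA LINP1 (siLINP1). The 10 genes were taken by name from the 44591 genes of the count table. They are 5 genes of the contractile apparatus (ACTA2, TAGLN, MYL9, CNN1 and DES), 4 targets of YAP (CTGF, also named CCN2, CYR61, also named CCN1, ANKRD1 and AMOTL2), and YAP1 itself. Both cultures were grown in DMEM with 10% serum, and per the labels they were transfected at about 70% confluency, kept without serum for 6 h and harvested 24 h after serum was returned. The methods text of the study gives a higher confluency and a single, longer interval, and it does not name the siLINP1 oligonucleotide that was sequenced. Total RNA was sequenced from 1 library per condition, so no difference below has a replicate check, no p-value was computed, and each interval covers counting error only.

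Reads assigned to genes totaled 18829544 for siNC and 15383081 for siLINP1. LINP1, the targeted RNA, was counted 167 times in siNC and 23 times in siLINP1 (log2 fold change -2.65, 95% interval -3.35 to -2.02). Every log2 fold change compares siLINP1 with siNC after median-of-ratios scaling. The label of a squamous line was checked on 11 keratinocyte genes, of which 6 lay under 1 RPKM (reads scaled to gene length and to the library total) in both libraries. Among these 6 the adhesion gene CDH1 had 14 and 3 reads and the basal keratin KRT5 had 32 and 24 reads. Above 1 RPKM in both libraries were PERP (14.3 and 21.1 RPKM), SFN (10.7 and 6.82), KRT14 (7.89 and 3.46) and KRT17 (1.99 and 2.23). KRT14 (243 and 87 reads) and SFN (264 and 138 reads) were lower in siLINP1, with log2 fold changes of -1.27 and -0.73, and PERP was higher (0.48). VIM, the mesenchymal intermediate filament, stood higher than any of these, at 1519 and 1278 RPKM.

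Contractile genes such as ACTA2 and CNN1 are classic targets of serum response factor (SRF), which acts with myocardin-related transcription factors (MRTFA and MRTFB) when actin polymerizes. YAP1 and its paralog TAZ (gene WWTR1) do not bind DNA themselves. They enter the nucleus when the Hippo kinases LATS1 and LATS2 are inactive, and they bind TEAD factors at the promoters and enhancers of genes such as CTGF, CYR61 and ANKRD1. Both systems respond to serum, cell density and tension on the actin cytoskeleton, and smooth muscle, myofibroblasts and many cultured tumor cells use them.

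Sequences upstream of the genes were taken from RefSeq (GRCh38.p14, a later build than the GRCh37 coordinates of the count table). The table matched 6 of the 10 genes in 8 windows, because ACTA2 and AMOTL2 each have alternative starts. TAGLN, MYL9, DES and CYR61 were not matched. The 250 bases before each start were searched on both strands for the M-CAT element CATTCC, the core sequence to which TEAD factors bind, whose reverse complement is GGAATG. It was present in 5 of the 8 windows, compared with 11.9% of the 35116 windows of the whole table. The CTGF window held 3 matches, and 29 windows of the table (0.0826%) held at least that many. The ANKRD1 window held 2, and 0.940% of all windows held 2 or more. The CArG box, the element of SRF, had no exact match in the 8 windows, and 1.16% of all windows held one. With 1 base allowed to differ, a search added after the data were examined, the downstream window of ACTA2 held 2 matches and the other windows none, and 16.8% of all windows held at least 1. The windows below are shown for the targets CTGF and ANKRD1, which were higher in siLINP1, for AMOTL2, whose interval included 0, and for the downstream start of ACTA2, each from 5′ to 3′ on the strand of the gene, with the M-CAT match in capitals.
CTGF, minus strand, chr6:131951373-131951622, matches beginning 169, 104 and 95 bases before the start: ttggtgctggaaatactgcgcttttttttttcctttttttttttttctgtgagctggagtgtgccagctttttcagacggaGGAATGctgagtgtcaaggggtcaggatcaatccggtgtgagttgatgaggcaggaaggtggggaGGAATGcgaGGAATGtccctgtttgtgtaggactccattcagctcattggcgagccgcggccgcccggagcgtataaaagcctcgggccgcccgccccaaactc
ANKRD1, minus strand, chr10:90921088-90921337, matches beginning 220 and 128 bases before the start: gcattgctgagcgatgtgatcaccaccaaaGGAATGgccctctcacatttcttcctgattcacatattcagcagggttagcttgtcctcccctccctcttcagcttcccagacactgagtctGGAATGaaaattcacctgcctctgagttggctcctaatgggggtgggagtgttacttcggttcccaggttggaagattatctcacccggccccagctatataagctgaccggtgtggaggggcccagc
AMOTL2, downstream of its 2 starts, minus strand, chr3:134374448-134374697, match beginning 69 bases before the start: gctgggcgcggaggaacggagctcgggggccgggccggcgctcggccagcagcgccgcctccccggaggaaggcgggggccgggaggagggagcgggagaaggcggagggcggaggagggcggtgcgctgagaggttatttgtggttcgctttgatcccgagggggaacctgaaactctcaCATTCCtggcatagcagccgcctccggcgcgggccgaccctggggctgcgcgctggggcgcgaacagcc
ACTA2, downstream of its 2 starts, minus strand, chr10:88952774-88953023, match beginning 183 bases before the start: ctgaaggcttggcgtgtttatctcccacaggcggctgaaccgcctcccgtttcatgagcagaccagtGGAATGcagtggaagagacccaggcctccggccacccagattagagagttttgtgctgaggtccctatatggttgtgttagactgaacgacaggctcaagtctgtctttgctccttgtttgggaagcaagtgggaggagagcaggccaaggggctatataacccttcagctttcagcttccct
The YAP1 window held 1 match, and the CNN1 window and the upstream starts of ACTA2 and AMOTL2 held none. A match is a description of the letters and does not show that a factor was bound.

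The YAP targets stood above the middle of the protein-coding genes in both libraries, and the contractile genes other than ACTA2 near or below it. In RPKM, CYR61 stood highest with 98.5 in siNC and 158 in siLINP1, above 97.0% and 98.4% of protein-coding genes. It was followed by AMOTL2 with 57.9 and 60.6, CTGF with 24.6 and 38.2, and YAP1 with 21.4 and 29.7 RPKM. ACTA2, at 13.6 and 19.7 RPKM, lay above 75.3% and 81.0% of protein-coding genes, and ANKRD1, at 7.08 and 16.3 RPKM, above 62.6% and 77.4%. TAGLN had 3.41 and 2.34 RPKM (above 51.3% and 45.6% of protein-coding genes), and MYL9 had 2.66 and 1.96 (above 48.2% and 43.9%). DES had 1.42 and 0.145 RPKM and CNN1 0.445 and 0.102, the lowest of the 10 genes. The order of the 10 genes was the same in both libraries.

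**Figure D1:**
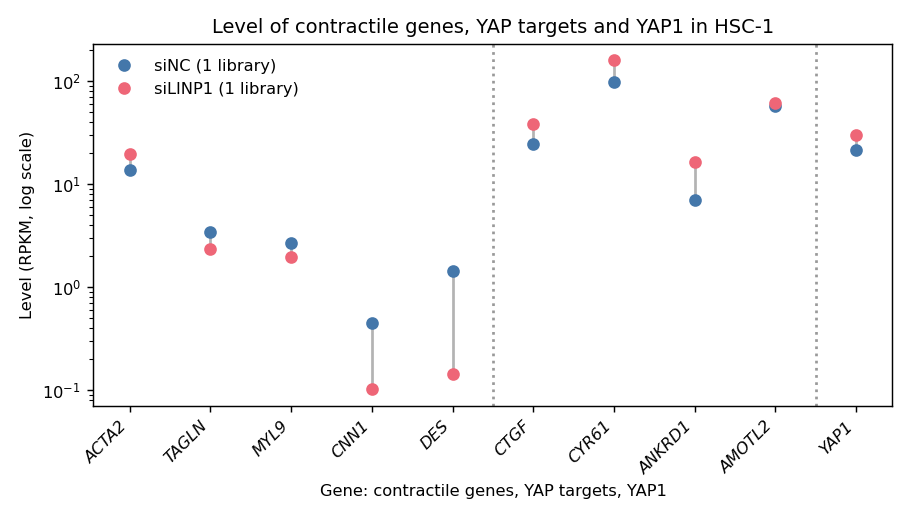
Level of each gene in RPKM (log axis), with 1 point per library (siNC blue, siLINP1 red) and dotted lines between contractile genes, YAP targets and YAP1. CYR61 stood highest in both libraries, and DES, at 1.42 and 0.145 RPKM, had the widest gap.

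After scaling, 2 of the 10 genes were higher in siLINP1 by more than 1.5-fold, ANKRD1 and CYR61, and 3 were lower by that much, DES, CNN1 and TAGLN. Over all 19840 genes with at least 10 reads in both libraries together, 14.4% lay above a 1.5-fold difference and 13.0% below it. At the 2-fold limit, ANKRD1 was higher and DES and CNN1 were lower, beside 6.74% of all genes higher and 5.33% lower. These shares depend on depth, so they were also taken in bands chosen after the data were examined. The 6 genes with at least 200 reads are ACTA2, the 4 YAP targets and YAP1, and in this band 7.74% of all genes were higher beyond 1.5-fold and 2.31% beyond 2-fold. TAGLN, MYL9, CNN1 and DES had from 10 to fewer than 200 reads, and in that band 23.9% of all genes were lower beyond 1.5-fold and 12.3% beyond 2-fold. With total count scaling, CTGF joined the higher genes and TAGLN left the lower ones.

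DES encodes desmin, the intermediate filament of muscle cells, and lies on chromosome 2 from 220283099 to 220291461 of GRCh37 on the plus strand. It was read 60 times in siNC but 5 times in siLINP1, which made it 10.4-fold lower (95% interval 4.21 to 33.1). This was the largest difference among the 10 genes, and the only one of them whose whole interval lay beyond 2-fold. VIM, a filament gene of the same type, had 61097 and 41992 reads (log2 fold change -0.33). The related GFAP and PRPH had 28 and 23 reads and 4 and 4 reads.

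CNN1 encodes calponin 1, an actin-binding protein of smooth muscle (chromosome 19, 11649532 to 11661138, plus strand). Its 16 siNC reads and 3 siLINP1 reads gave a log2 fold change of -2.21 with a wide interval of -4.63 to -0.40. Of its paralogs, CNN2 was lower at a much greater depth, with 2970 and 1228 reads (-1.06, 95% interval -1.16 to -0.97). CNN3 had 2929 and 2216 reads (-0.19).

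TAGLN encodes transgelin (SM22), an actin-crosslinking protein (chromosome 11, 117070040 to 117075508, plus strand). Its reads numbered 100 in siNC and 56 in siLINP1 (log2 fold change -0.63, 95% interval -1.13 to -0.14). LOC100652768 overlaps it on the other strand over 2591 bases, with 70 and 48 reads, and without a stated strand setting the reads of the pair cannot be told apart. The paralogs differed in opposite directions: TAGLN2 had 14724 and 9122 reads (-0.48) and TAGLN3 had 160 and 466 reads (1.75, 95% interval 1.49 to 2.02).

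MYL9 encodes the regulatory light chain of smooth and non-muscle myosin (chromosome 20, 35169887 to 35178226, plus strand). It had 60 and 36 reads, and the interval of its log2 fold change of -0.53 reached from -1.17 to 0.09, so a difference was not detectable at this depth. Non-coding genes on the other strand overlap it, namely DLGAP4-AS1 with 10 and 2 reads, ENSG00000232907.3 with 21 and 24, and ENSG00000259716.1 with 28 and 15. The light chains MYL12A and MYL12B, which are far better read, had log2 fold changes of -0.33 and -0.05.

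ACTA2, alpha smooth muscle actin, lies on the minus strand of chromosome 10 from 90694831 to 90751154 and was higher in siLINP1, unlike DES, CNN1 and TAGLN. With 477 reads in siNC and 563 in siLINP1, it was 1.36-fold higher (95% interval 1.21 to 1.54). FAS, on the opposite strand, shares 839 bases with it and had 430 and 689 reads, and ACTA2-AS1 shares 4901 bases and had 39 and 49 reads. The actin paralogs encode near-identical proteins, and whether they shared reads was not tested. Among them ACTB had 41899 and 36511 reads (0.01) and ACTG1 60149 and 34966 (-0.57, 95% interval -0.59 to -0.55). The muscle actins ACTA1, ACTC1 and ACTG2 had at most 7 reads in a library. Summed, the 5 contractile genes had 713 and 663 reads (log2 fold change 0.10, 95% interval -0.05 to 0.26), a value that rests on ACTA2. Without it, an exclusion chosen after its direction was seen, the sums were 236 and 100 reads and the log2 fold change was -1.03 (95% interval -1.38 to -0.69).

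ANKRD1, the cardiac ankyrin repeat protein, is induced by stretch and by YAP, and lies on the minus strand of chromosome 10 from 92671857 to 92681032. It was counted 263 times in siNC and 494 times in siLINP1, and was 2.17-fold higher (95% interval 1.87 to 2.53). No other gene of the table overlaps it. Its relatives ANKRD2 and ANKRD23 had 4 and 7 reads and 88 and 77 reads.

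CYR61 and CTGF encode secreted matricellular proteins of the CCN family that bind integrins. CYR61 (chromosome 1, 86046444 to 86049650, plus strand) had 4257 and 5595 reads and was 1.52-fold higher (95% interval 1.46 to 1.58). CTGF, on the minus strand of chromosome 6 from 132269316 to 132272518, had 1084 and 1379 reads and was 1.47-fold higher (95% interval 1.36 to 1.59). ENSG00000227220.1 overlaps CTGF on the other strand over 433 bases, with 7 and 12 reads. The intervals of CYR61 and CTGF overlap each other, and the interval of ANKRD1 lies above both. Other CCN genes were lower or thinly read. CCN3 (NOV in the table) had 294 and 188 reads (log2 fold change -0.44, 95% interval -0.71 to -0.17), and CCN5 (WISP2) had 32 and 13 reads (-1.09, 95% interval -2.14 to -0.12). CCN6 (WISP3) had 19 and 21 reads and CCN4 (WISP1) 1 and 0.

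AMOTL2 encodes an angiomotin-like scaffold that binds YAP and holds it in the cytoplasm, and it is also a YAP target. It lies on the minus strand of chromosome 3 from 134074187 to 134094259. Its 5706 reads in siNC and 4886 in siLINP1 gave a log2 fold change of -0.01 (95% interval -0.07 to 0.04), the narrowest interval of the 10 genes, and the sign turned with scaling by total count (0.07) and with TMM (0.01). Of its paralogs, AMOT had 436 and 288 reads (-0.39) and AMOTL1 3098 and 3426 reads (0.35). Summed, the 4 YAP targets had 11310 and 12354 reads (0.34, 95% interval 0.30 to 0.37). Most of these reads were of AMOTL2 (-0.01) and CYR61 (0.60), so the sum lies between unlike values.

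YAP1 (chromosome 11, 101981192 to 102104154, plus strand) had 2303 and 2602 reads and was 1.31-fold higher (95% interval 1.23 to 1.38). ENSG00000254422.1 overlaps it on the other strand over 1072 bases, with 115 and 157 reads. The YAP1 paralog WWTR1 was counted 9449 and 6910 times (log2 fold change -0.24, 95% interval -0.29 to -0.20), so the transcripts of the coactivators differed in opposite directions. In RPKM, WWTR1 stood at 93.5 and 83.7, above YAP1 in both libraries. The DNA-binding partners TEAD1, TEAD2, TEAD3 and TEAD4 had log2 fold changes of 0.09, -0.19, -0.18 and -0.11, and the upper ends of the last 3 intervals lay at 0.00, 0.01 and 0.00.

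Of 18 other YAP and TAZ targets, 4 were higher by more than 1.5-fold and 0 were lower by that much, with 0 beyond 2-fold in either direction. Over all genes with at least 10 reads, 14.4% were higher and 13.0% lower beyond 1.5-fold, and 6.74% and 5.33% beyond 2-fold. Among genes with at least 200 reads, 7.74% were higher beyond 1.5-fold and 2.31% beyond 2-fold. Among genes with at least 100 reads, 6.77% were lower beyond 1.5-fold. LATS2, the kinase that restrains YAP, had 1120 and 1770 reads (log2 fold change 0.87, 95% interval 0.76 to 0.98). The others were F3, which encodes tissue factor (227 and 322 reads, 0.71), GADD45A, a stress-response gene (4075 and 5601 reads, 0.67), and RBMS3 (305 and 404 reads, 0.61). MYOF, a membrane repair gene, had the lowest value with 8741 and 5642 reads (-0.42). The intervals of PTPN14 (-0.09), FJX1 (-0.16) and ARHGEF17 (-0.29) also lay below 0. Of the 18 intervals, 4 lay below 0 and 8 above it. The median log2 fold change of the 18 genes was 0.06, beside -0.02 over all genes kept.

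Of 24 genes of the Hippo pathway and partners of YAP, LATS2 and the kinase MAP4K4 (3021 and 4018 reads, 0.62) were higher by more than 1.5-fold. This count of 2 is not above the 14.4% of all genes. It lies near the 7.74% of genes with at least 200 reads, a depth that all 24 reach. LATS1 had 662 and 813 reads (0.51). MOB1A, the LATS cofactor, was lower with 1828 and 956 reads (-0.73, 95% interval -0.84 to -0.61), while its paralog MOB1B had 537 and 579 reads (0.32). The median was -0.05 and turned to 0.04 with scaling by total count. LATS2 and PTPN14 stand in both lists.

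A list of 32 further genes, called contractile SRF targets here, joins paralogs of the 10 genes and general cytoskeletal genes. Whether SRF acts on each of them was not tested. In this list 30 genes had at least 10 reads, of which 3 were higher and 4 lower beyond 1.5-fold, all 7 of them also beyond 2-fold. Over all genes, 14.4% were higher and 13.0% lower beyond 1.5-fold, near the shares in the list, and 6.74% and 5.33% beyond 2-fold. The 3 higher genes each had at least 200 reads, a band in which 7.74% were higher beyond 1.5-fold and 2.31% beyond 2-fold. Among the lower genes, LMOD1 and SYNPO2 had fewer than 200 reads. In that band 23.9% of all genes were lower beyond 1.5-fold and 12.3% beyond 2-fold. The higher genes were TAGLN3, the tropomyosin TPM4 (3275 and 8139 reads, 1.52) and FHL2, a cofactor of SRF and YAP signaling (868 and 1524 reads, 1.02). The lower genes were CNN2, smooth muscle myosin heavy chain MYH11 (158 and 65 reads, -1.07), LMOD1 (54 and 19 reads, -1.30) and SYNPO2 (21 and 4 reads, -2.18). Except for CNN2, the lower genes were read at most 158 times in a library. The most read genes outside the actins differed less and in both directions, with log2 fold changes of -0.31 for FLNA, -0.38 for ACTN4, 0.11 for MYH9 and -0.48 for TAGLN2. The median of the 30 genes was -0.16, beside -0.02 over all genes kept.

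SRF itself had 934 and 951 reads (log2 fold change 0.24). Its cofactor MRTFA (MKL1 in the table) had 537 and 602 reads (0.37), and MRTFB (MKL2) had 384 and 322 (-0.04). MYOCD, the muscle-restricted cofactor, had 2 and 1 reads. ELK4, a ternary complex factor that binds DNA together with SRF, had 1301 and 1629 reads (0.53), and the related ELK3 and ELK1 had 2315 and 2459 reads (0.30) and 1600 and 1340 reads (-0.05).

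Genes of other tissues also differed, some lower and some higher in siLINP1. The 6 smooth muscle markers had a summed level of 39.5 RPKM in siNC and 51.5 in siLINP1, most of it from SMTN (2188 and 2632 reads), which many cells express. MYH11 and LMOD1, given above, were lower, ACTG2 had 2 and 0 reads, MYOCD had 2 and 1, and SYNM had 1014 and 689 reads (-0.35). Of 8 fibroblast and stroma genes, 7 had at least 10 reads and 4 were lower by more than 1.5-fold, beside 13.0% of all genes. These were COL1A1 with 190 and 79 reads, LUM with 222 and 87, PDGFRB with 369 and 172, and DCN with 29 and 2. Among all genes with at least 100 reads, 6.77% were lower by that much. DCN alone of the 4 had fewer than 200 reads, a band in which the share was 23.9%. COL1A2 had 4 and 8 reads, and the summed level of the 8 genes was 11.4 RPKM in siNC and 5.96 in siLINP1. The 13 skeletal and cardiac muscle genes summed to 5.46 and 4.11 RPKM, most of it from MYH3 (499 and 309 reads, -0.48). Of the 6 with at least 10 reads, TTN (12 and 17 reads) was higher by more than 1.5-fold. CKM (14 and 7) and RYR1 (21 and 6) were lower by that much, beside 14.4% of all genes higher and 13.0% lower. TTN, CKM and RYR1 each had fewer than 200 reads, where the share of lower genes was 23.9%. The intervals of TTN and CKM included 0. MYOD1 and MYOG had 1 read in siNC and 0 in siLINP1, and MYF5 had 0 in both. A list of 14 gastric epithelium genes, added after the data were examined, had 514 reads in siNC and 56 in siLINP1 (summed level 16.7 and 0.850 RPKM). Because of that choice, its sums only describe these genes. Of the 7 with at least 10 reads, 5 were lower and 2 higher by more than 1.5-fold. Each had fewer than 200 reads, where 23.9% of all genes were lower. In this list PGC had 194 and 0 reads, PGA3 95 and 0, LIPF 82 and 0 and TCN1 75 and 2, whereas MUC6 had 17 and 23 and ATP4A 13 and 28. Neither the source of such RNA nor its part in the values of DES, CNN1, TAGLN and MYL9 was tested. The counts do not show where these reads arose or that cells of such tissues were present. In bulk RNA, fewer cells of a type and less RNA per cell also cannot be told apart.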

How the data were processed

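Total RNA of the siNC and siLINP1 cultures was sequenced for the authors by a company on an Illumina HiSeq instrument, and the reads were aligned to GRCh37/hg19 with Tophat2 and counted with HTSeq. The submitters' processing notes also list HISAT2, HISAT and Bowtie2. Versions, annotation, counting mode and strand setting are not given in the sources used here. The authors deposited raw counts per gene, the gene length and RPKM, which was recomputed here from counts, lengths and library totals without a difference. Another 12 columns with values of single samples were left out.

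Median-of-ratios size factors (1.08 for siNC and 0.930 for siLINP1) were applied to the counts, and genes with at least 10 reads over both libraries were kept. The log2 fold change is siLINP1 over siNC without a pseudocount, and its 95% interval was derived by the Clopper-Pearson method from the siLINP1 share of a gene's reads. A fold against 0 reads was bounded by a floor of 3 reads. With 1 library per condition no test was run, so lists were described by counts beyond 1.5-fold and 2-fold and by medians. Named genes were the 10 genes, their paralogs, overlapping genes, SRF and YAP partners, and from each list the 3 highest and 3 lowest by the nearer end of the interval among genes with at least 100 reads; others, among them markers, LMOD1, SYNPO2, RBMS3, MOB1B, FLNA, ACTN4 and MYH9, were named after their values were seen. The members and lists were chosen with earlier results of these data known. One list of regulators is not reported here. Alternatives were scaling by total count, TMM and upper quartile, pseudocounts of 1 and 5, a minimum of 1 or 100 reads, and protein-coding genes only. The calculations were tested on simulated data. R 4.3.3 with edgeR 4.0.16 (TMM factors only) and Python 3.11.15 with scipy 1.17.1, numpy 2.4.6, matplotlib 3.10.9 and pandas 2.3.3 were used.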

Additional observations from a re-analysis of the deposited data

How the results depend on the processing

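Scaling by total count raised every log2 fold change by 0.08, TMM by 0.02, and the upper quartile lowered it by 0.01. Over these scalings and pseudocounts of 1 and 5, the sign of 9 of the 10 genes held, and AMOTL2 turned with total count and TMM. With total count, CTGF (0.64) passed 1.5-fold and TAGLN (-0.54) no longer did. A pseudocount of 5 moved DES to -2.55 and CNN1 to -1.27. A minimum of 100 reads left out DES, CNN1 and MYL9, so that 1 of the 10 genes was lower beyond 1.5-fold and 0 beyond 2-fold. It left 2 lower contractile SRF targets, and 0 higher and 0 lower paralogs of the other families (1 each otherwise; a pseudocount of 5 left 0 higher). At least 100 reads lowered the shares of all genes to 8.72% higher and 6.77% lower beyond 1.5-fold, and 2.71% and 1.12% beyond 2-fold. A pseudocount of 5 lowered the latter shares to 4.15% and 2.57%. The summed contractile genes moved to -1.03 without ACTA2. With 1 base off allowed, 1 of the 8 promoter windows held a CArG box, and 0 did otherwise. Depth limits CNN1, MYL9 and DES most, and the spread between cultures cannot be had from 1 library per condition. No paired analysis was possible because each condition has 1 library, and for the same reason no replicate could be left out.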
